A study of Mus musculus with 126 samples.

Results

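The 43 genes described here encode the machinery that copies chromosomal DNA: the proteins that license origins, the MCM helicase and its activators, the replicative polymerases and primase, the sliding clamp and its loader, the single-strand binding protein, the enzymes that join Okazaki fragments, and ribonucleotide reductase. They were taken as a named list, by gene symbol, from a table of read counts for 23420 genes, and all 43 were found there and passed the filter on low counts that left 15822 genes tested. Before an origin can fire, the origin recognition complex together with Cdc6 and Cdt1 loads the MCM rings onto DNA; kinases then recruit Cdc45 and the GINS complex to turn each ring into an active helicase, and polymerases, clamp and ligase copy and join the strands behind it. Most of these genes are classical targets of the E2F transcription factors, which the retinoblastoma family of proteins holds in check until a cell commits to S phase. Mouse embryonic stem cells divide fast, spend little time in G1 and are known for high levels of this machinery.

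The series holds 126 samples, of which the 8 RNA-seq libraries were used and the other 118 (ChIP-seq, ATAC-seq and their controls) were not analysed here. The cells were J1 mouse embryonic stem cells, a line kept undifferentiated by leukaemia inhibitory factor in serum on gelatin, either wild type or a triple knockout (TKO) of Dnmt1, Dnmt3a and Dnmt3b, the enzymes that write DNA methylation. Each genotype was exposed for 36 h either to Trichostatin A (TSA), an inhibitor of histone deacetylases, at 5 ng/µl as the labels give it, or to the vehicle, DMSO at 0.0033%. This gives 4 groups of 2 libraries, which the series' design text calls biological replicates; whether the TKO cells are 1 clone is not given in the sources used here.

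Total counts ran from 13280631 to 15542527 per library, and the lowest count of any of the 43 genes in any library was 231. The targeted genes were lower in both TKO groups: Dnmt3b stood at 588 to 596 CPM (read counts scaled to library size) in wild type DMSO and at 43.7 to 46.2 in TKO DMSO, Dnmt3a at 185 to 237 and 25.9 to 27.0, and Dnmt1 at 428 to 464 and 126 to 135. H1f0, a linker histone gene known to rise under deacetylase inhibition, rose by 1.27 on the log2 scale with TSA in wild type and by 1.12 in TKO. Summed over 11 pluripotency markers, the level was 4494 to 4702 CPM in wild type DMSO and 5160 to 5348 in TKO DMSO against 2460 to 2725 and 2419 to 2746 with TSA, and 9 and 8 of the 11 were called lower; none of the 40 markers of 5 cell types was at 0 in all libraries. All CPM values below are scaled by the trimmed mean of M-values (TMM), and a gene was called where edgeR's quasi-likelihood test gave an adjusted p (Benjamini-Hochberg over the 15822 genes) under 0.05. With 2 libraries a group, an exact permutation test could not go below 0.333, so each p-value rests on the variance that edgeR shares between genes.

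The promoters are shown first because most of these genes are textbook E2F targets. RefSeq promoter sequences on GRCm38.p6 matched 35 of the 43 genes, with 43 promoters in all. Gins1, Gins2, Gins4, Gmnn, Mcm4, Pole, Prim2 and Rfc2 had no entry. Each line below gives the 250 bases before the start, 5′ to 3′ on the gene's strand, with every exact match in either orientation to 1 of 4 E2F-type words in capitals: the first word is TTCCCGC, the second is TTGGCGC, the third is TTCGCGC and the last is TTGCCGC. Mcm5 (chr8:75109259-75109508, plus strand), Mcm6 (chr1:128359706-128359955, minus strand) and Pola1 (chrX:93632156-93632405, minus strand) carried the most matches and fell with TSA; Mcm2 (chr6:88898781-88899030, minus strand) fell and carried none; Prim1 (chr10:128014965-128015214, plus strand) carried 1 and rose.
Mcm5: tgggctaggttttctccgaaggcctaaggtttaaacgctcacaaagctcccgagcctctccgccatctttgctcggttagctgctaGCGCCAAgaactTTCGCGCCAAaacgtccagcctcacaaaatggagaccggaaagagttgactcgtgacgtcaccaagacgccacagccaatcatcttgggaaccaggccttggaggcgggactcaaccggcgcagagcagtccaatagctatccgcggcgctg
Mcm6: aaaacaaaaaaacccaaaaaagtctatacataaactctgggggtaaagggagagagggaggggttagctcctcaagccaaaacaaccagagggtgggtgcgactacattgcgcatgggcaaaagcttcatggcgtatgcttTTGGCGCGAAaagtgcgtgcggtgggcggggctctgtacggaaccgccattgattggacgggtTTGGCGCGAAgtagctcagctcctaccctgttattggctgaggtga
Pola1: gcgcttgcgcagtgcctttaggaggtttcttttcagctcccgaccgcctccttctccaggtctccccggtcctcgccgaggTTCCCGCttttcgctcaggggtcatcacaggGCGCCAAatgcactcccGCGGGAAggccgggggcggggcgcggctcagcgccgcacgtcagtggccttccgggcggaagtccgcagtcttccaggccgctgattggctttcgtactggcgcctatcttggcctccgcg
Mcm2: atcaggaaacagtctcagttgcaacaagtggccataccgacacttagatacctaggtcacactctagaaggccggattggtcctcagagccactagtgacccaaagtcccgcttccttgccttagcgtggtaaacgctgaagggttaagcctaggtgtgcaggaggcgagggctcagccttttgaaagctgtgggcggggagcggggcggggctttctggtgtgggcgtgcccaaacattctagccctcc
Prim1: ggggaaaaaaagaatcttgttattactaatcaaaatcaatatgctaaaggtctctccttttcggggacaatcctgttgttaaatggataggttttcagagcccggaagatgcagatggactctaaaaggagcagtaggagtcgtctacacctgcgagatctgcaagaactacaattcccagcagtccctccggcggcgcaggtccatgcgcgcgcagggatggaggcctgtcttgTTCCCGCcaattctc

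In Mcm6 the motif appears as a pair of identical stretches, each holding 2 overlapping words on opposite strands. At least 1 E2F-type word was found in 39.5% of the 43 promoters of these genes, in 13.1% of the 14487 promoters of genes tested and in 7.89% of the 32851 promoters searched. Promoters on 1 chromosome, which holds none of the 43 genes, were left out of the search. Of the 24 E2F-type matches, 6 overlapped another such match, 1 overlapped an NFY word and 1 an SP1 word. The other words were searched on both strands in the same windows. CCAAT, the core bound by NFY, was in 55.8% of the member promoters against 35.2% of those of tested genes; GGGCGG (SP1) in 65.1% against 55.7%; and CCGGAAG (GABPA) in 32.6% against 11.8%. GCATGCG (NRF1) was in 9.30% against 4.99%, ATGGCGG (YY1) in 11.6% against 3.38%, and CACGTG (MAX) in 11.6% against 8.08%. Cdt1 held 3 matches to the NRF1 word and Pold2 held 2, with each strand counted. In each gene, 2 of these matches overlap on opposite strands in 1 stretch, CGCATGCG. Of 16 genes with a match, 7 were called lower with TSA in wild type (median log2 fold change -0.24), and of 19 without one, 14 were (median -0.52). Over all genes tested the share was 25.9%, and 40.8% over the 6317 genes within the range of levels of the 43. In TKO the counts were 6 of 16 (median -0.17) and 14 of 19 (median -0.49), beside 27.9% and 40.0%. These are descriptions of letters in a fixed window, not of binding. Some genes had more than 1 listed start. Some windows lay inside the gene as counted, such as that of Cdc6 and 1 each of Mcm7 and Pold2.

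Most of the replication genes fell with TSA in both genotypes. In wild type cells 27 of the 43 were called lower and 2 higher, where 25.9% of all tested genes were called lower, 27.0% higher and 52.8% in either direction. In TKO cells 27 were called lower and 1 higher, against 27.9% of all tested genes lower, 30.8% higher and 58.7% in either direction. The called decreases were moderate, from 1.17-fold to 2.10-fold in wild type and from 1.21-fold to 2.50-fold in TKO. The median log2 fold change over the 43 genes was -0.39 in wild type and -0.47 in TKO, beside medians of 0.01 and 0.04 over all genes tested. Among the 6317 tested genes whose mean level lay within the range of the 43 (34.8 to 982 CPM), the medians were -0.18 and -0.14, and 40.8% were called lower in wild type and 40.0% in TKO, a background chosen after seeing the data. In the libraries themselves the 43 genes took 0.918% and 0.918% of all counts with DMSO and 0.803% and 0.771% with TSA in wild type cells, and 0.955% and 0.951% with DMSO and 0.769% and 0.750% with TSA in TKO cells. The TSA libraries were lower than the DMSO libraries of the same genotype without overlap for 33 genes in wild type and 32 in TKO, 31 of them the same. The share of all tested genes separated in this way was not counted, so these numbers have no background beside them. Scaling by total counts in place of TMM left 21 lower and 5 higher in wild type and 24 lower and 5 higher in TKO, with the median over all genes at 0.22 and 0.19. Over all tested genes that scaling called 2433 lower and 5812 higher in wild type, and 3267 lower and 5908 higher in TKO. In bulk RNA, fewer cells in S phase and less of these transcripts per cell cannot be told apart. Other cell states moved with the treatment: beside the lower pluripotency markers, the summed level of 7 trophoblast markers was 1108 to 1229 CPM in wild type TSA against 473 to 731 in DMSO, and 135 to 203 against 57.9 to 81.9 in TKO, with 6 of 7 called higher in each. The summed level of 6 neural markers was 173 to 207 against 334 to 417 in wild type and 159 to 167 against 295 to 324 in TKO, with 4 called lower and 1 higher in wild type and 3 lower and 2 higher in TKO. Of 8 mesenchymal markers, 2 were called higher and 2 lower in wild type, and 6 higher and 0 lower in TKO, where their summed level was 38.0 to 44.3 CPM against 17.7 to 31.7. Of 8 endoderm markers, 1 was called higher and 2 lower in wild type, and 2 higher and 2 lower in TKO. The part of these shifts in the replication genes was not tested.

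**Figure D1:**
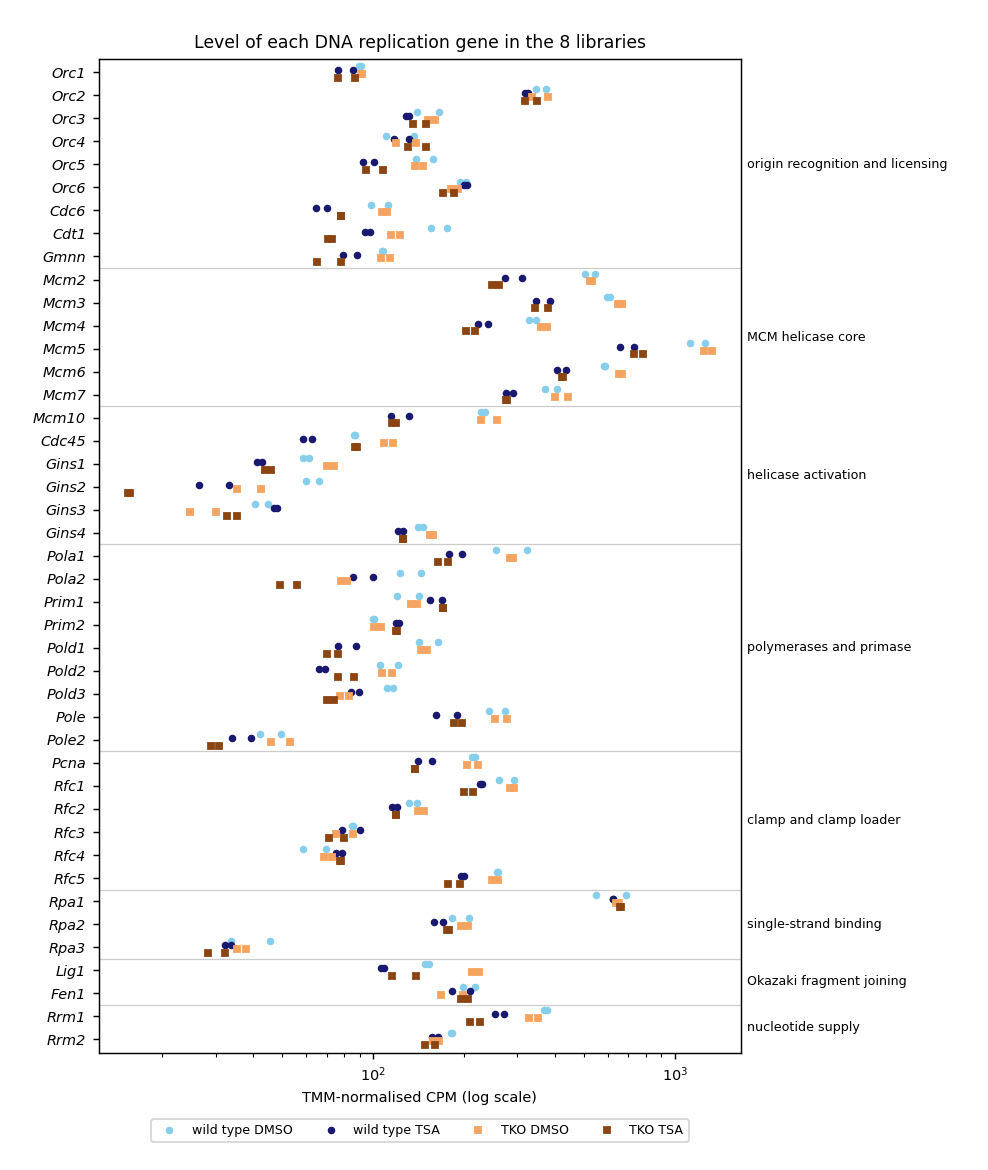
Levels of the 43 replication genes in each of the 8 libraries, in TMM-normalised CPM on a log axis, grouped by role, with a point for each library. The TSA libraries (dark) lie to the left of the DMSO libraries (light) of their genotype for 33 genes in wild type and 32 in TKO, and Mcm5 is at the far right of the MCM block. Such separation was not counted over all tested genes.

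**Figure D2:**
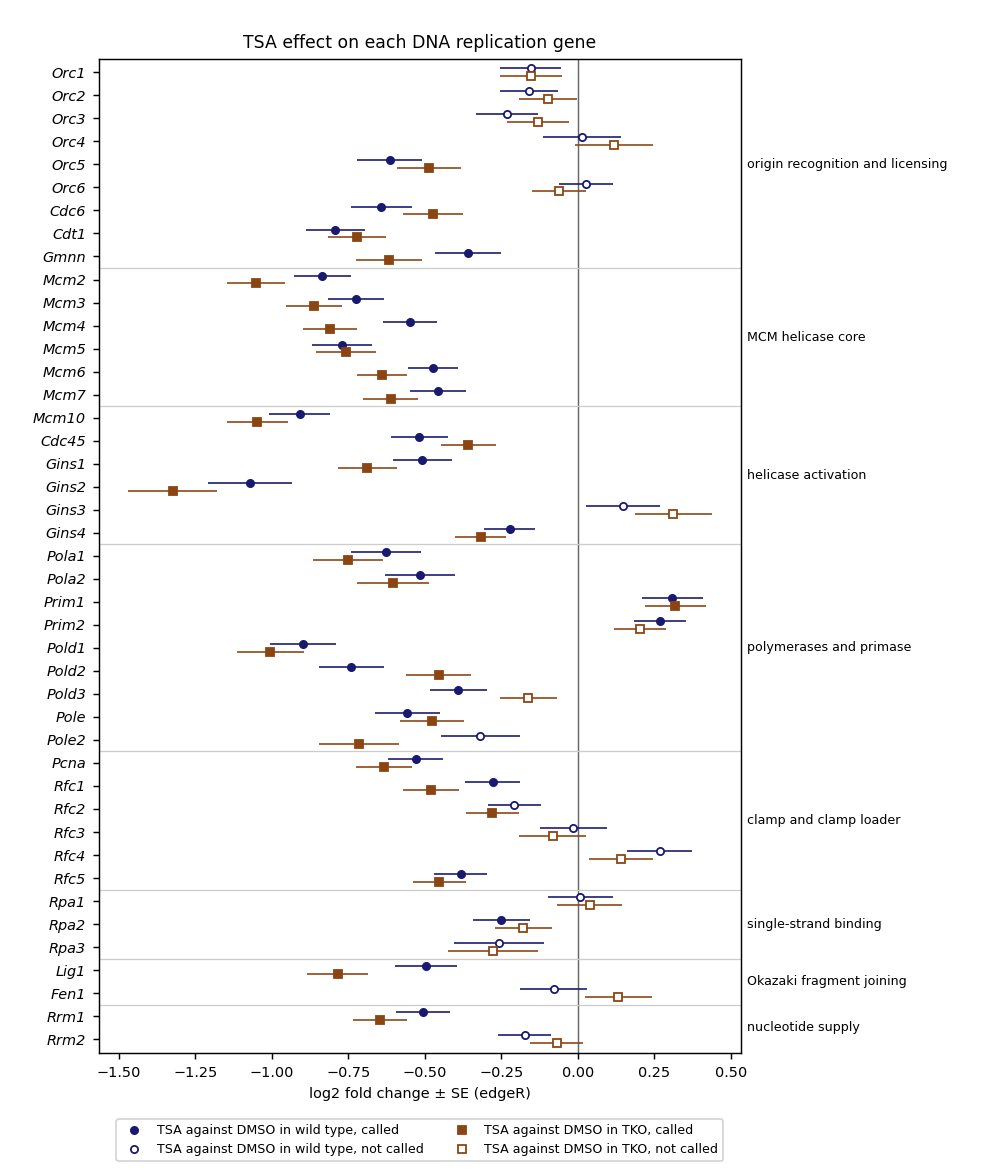
TSA effect on each replication gene, as edgeR's log2 fold change with its standard error, in wild type (circles) and TKO (squares), filled where the gene was called. The 6 MCM core genes are filled on the left in both genotypes, while Prim1 is filled on the right in both.

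Of the 9 licensing genes, which include the 6 subunits of the origin recognition complex (ORC), Orc5, Cdc6, Cdt1 and Gmnn fell in both genotypes and none rose. These are 44.4% of the 9, beside 25.9% and 27.9% of all tested genes called lower in wild type and TKO. Within the range of levels of the 43 genes, 40.8% and 40.0% were called lower, close to the licensing share. In either direction 52.8% and 58.7% of all tested genes were called. The same shares stand beside the counts by role below. Cdt1 escorts MCM rings to the origin, and it stood at 175 and 156 CPM with DMSO and 93.6 and 97.5 with TSA in wild type cells, and at 114 and 123 with DMSO and 70.5 and 73.2 with TSA in TKO cells. The TSA libraries lay below the DMSO libraries in each genotype, and the log2 fold change was -0.79 ± 0.09 (SE, adjusted p = 8.2e-05) in wild type and -0.72 ± 0.10 (SE, adjusted p = 9.47e-05) in TKO. Geminin (Gmnn), the inhibitor that binds Cdt1 to prevent a further round of licensing, stood at 108 and 107 CPM with DMSO and 88.3 and 79.5 with TSA in wild type cells, and at 106 and 114 with DMSO and 78.1 and 65.3 with TSA in TKO cells. It fell by 0.36 on the log2 scale in wild type (adjusted p = 0.0162) and by 0.62 in TKO (adjusted p = 0.000589), again with no overlap between treatments. Without wild type TSA replicate 2 the wild type change was -0.29 (adjusted p = 0.128), with total counts -0.15 (adjusted p = 0.229) and with the upper quartile -0.21 (adjusted p = 0.117). Cdc6, the ATPase that closes the ORC ring around DNA, fell by 0.64 and 0.47, and Orc5 by 0.62 and 0.49. The other ORC subunits were not called. Orc1 had log2 fold changes of -0.15 in wild type and -0.15 in TKO, Orc2 -0.16 and -0.10, and Orc3 -0.23 and -0.13. For Orc4 they were 0.01 and 0.12, and for Orc6 0.03 and -0.06, each with a standard error of 0.09 to 0.13. Orc3 was called in wild type without DMSO replicate 1 (-0.35, adjusted p = 0.0198) and with the gene length offset (-0.31, adjusted p = 0.0269), and Orc6 with total counts (0.23, adjusted p = 0.0359). Part of the exons of Orc3 (2.03%) and Orc4 (10.3%) overlaps genes on the other strand. Per kilobase of exon, Orc6 was the highest of the 6 subunits in all 8 libraries, at 103 to 124 RPKM (reads per kilobase of exon, scaled to library size as CPM is), and Orc3 or Orc4 the lowest, at 20.3 to 26.1.

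The MCM core was the one role of which every member was called: all 6 subunits fell in both genotypes, with a median log2 fold change of -0.64 in wild type and -0.78 in TKO, and all 6 calls held under every alternative setting run. The subunits form the hexameric ring that unwinds the parental strands. Mcm2 stood at 541 and 501 CPM with DMSO and 312 and 272 with TSA in wild type cells, and at 523 and 531 with DMSO and 261 and 248 with TSA in TKO cells. Its TSA libraries were lower than its DMSO libraries throughout, with log2 fold changes of -0.84 ± 0.09 (SE, adjusted p = 5.98e-05) in wild type and -1.05 ± 0.09 (SE, adjusted p = 8.47e-06) in TKO. Mcm5, the highest of the 43 genes per kilobase in every library but wild type TSA replicate 2 (192 RPKM, with Rpa1 at 199.8), stood at 1256 and 1117 CPM with DMSO and 734 and 658 with TSA in wild type cells, and at 1324 and 1245 with DMSO and 786 and 733 with TSA in TKO cells. The treatments did not overlap and the change was -0.77 ± 0.10 (SE, adjusted p = 0.00011) in wild type and -0.76 ± 0.10 (SE, adjusted p = 7.64e-05) in TKO, a difference of 0.01 ± 0.14.

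Mcm3 stood at 611 and 595 CPM with DMSO and 384 and 346 with TSA in wild type cells, and at 647 and 667 with DMSO and 378 and 344 with TSA in TKO cells. Mcm4 stood at 328 and 346 CPM with DMSO and 239 and 222 with TSA in wild type cells, and at 378 and 360 with DMSO and 218 and 203 with TSA in TKO cells. Both were lower with TSA in every library, Mcm3 by 0.72 in wild type and 0.86 in TKO on the log2 scale and Mcm4 by 0.55 and 0.81. Mcm6 stood at 582 and 585 CPM with DMSO and 434 and 408 with TSA in wild type cells, and at 668 and 654 with DMSO and 423 and 424 with TSA in TKO cells. Mcm7 stood at 405 and 372 CPM with DMSO and 291 and 275 with TSA in wild type cells, and at 443 and 400 with DMSO and 276 and 275 with TSA in TKO cells. These last subunits had the smallest decreases of the ring, 0.47 and 0.64 for Mcm6 and 0.46 and 0.61 for Mcm7, and again no TSA library reached a DMSO library of its genotype. Although the ring holds its subunits in equal number, the transcripts were unequal: per kilobase of exon Mcm5 was the highest and Mcm4 the lowest in all 8 libraries, 3.11 to 4.01 times apart. Summed over the 6 genes, the per-length level was 1200 and 1135 RPKM with DMSO and 778 and 710 with TSA in wild type cells, and 1287 and 1245 with DMSO and 760 and 725 with TSA in TKO cells.

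**Figure D3:**
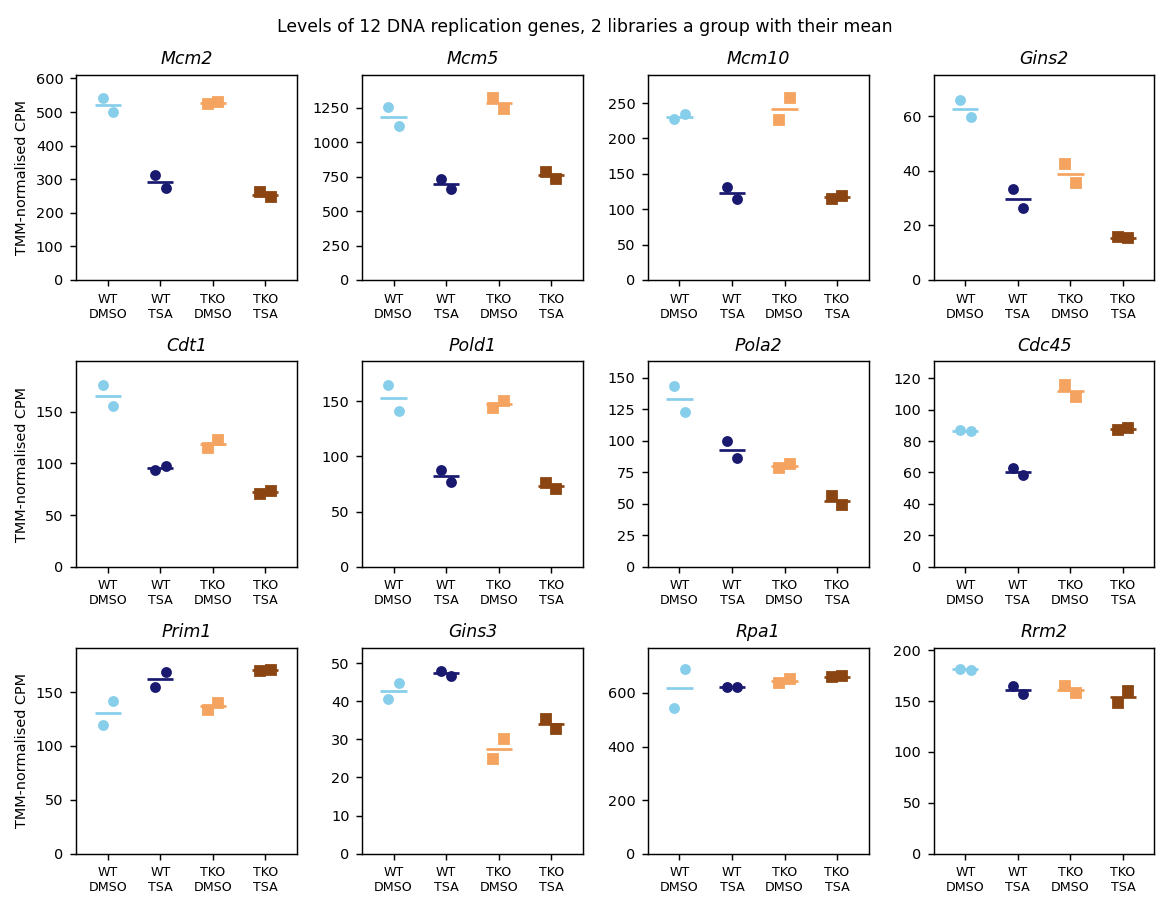
Levels of 12 replication genes by group in TMM-normalised CPM on axes that start at 0, with a point for each library and a bar at the mean of the 2. Mcm2, Mcm5, Mcm10, Pold1 and Gins2 are lower with TSA in both genotypes, Gins2 and Pola2 are lower again in TKO, Cdc45 is higher in TKO, and Prim1 is higher with TSA.

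Of the 6 genes that activate the helicase, 5 fell in both genotypes. Gins2, a subunit of the GINS complex that holds Cdc45 against the MCM ring, had the largest decrease of all 43 genes in both. It stood at 65.9 and 59.7 CPM with DMSO and 33.2 and 26.4 with TSA in wild type cells, and at 42.3 and 35.4 with DMSO and 15.6 and 15.4 with TSA in TKO cells. The 4 groups formed 4 separate levels, and TSA changed it by -1.07 ± 0.14 (SE, adjusted p = 0.000124) in wild type and -1.32 ± 0.15 (SE, adjusted p = 2.83e-05) in TKO. The gene lies at chr8:120581266-120589075 on the minus strand, and 11.4% of its exon bases overlap exons of Gse1 on the other strand; the use of strand in counting is not given in the sources used here. Mcm10, which helps the assembled helicase to start moving, stood at 227 and 234 CPM with DMSO and 131 and 114 with TSA in wild type cells, and at 227 and 257 with DMSO and 115 and 119 with TSA in TKO cells. Its treatments were separate in both genotypes, with changes of -0.91 ± 0.10 (SE, adjusted p = 5.41e-05) and -1.05 ± 0.10 (SE, adjusted p = 1.27e-05).

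Gins1 fell by 0.51 in wild type and 0.69 in TKO, and Cdc45, the cofactor that completes the helicase, by 0.52 and 0.36; without TKO DMSO replicate 1 the latter was -0.31 (adjusted p = 0.0531), and with total counts -0.21 (adjusted p = 0.0616). Gins4 fell least, by 0.22 (adjusted p = 0.0423) and 0.32 (adjusted p = 0.007); in wild type that call was lost in 15 of 16 alternatives. It was at -0.20 to -0.25 (adjusted p = 0.0529 to 0.202) without any 1 of the 4 wild type libraries. Scaling by total counts left Gins4 at -0.02 (adjusted p = 0.856) in wild type and -0.17 (adjusted p = 0.0923) in TKO, and scaling by the upper quartile left -0.07 (adjusted p = 0.473) in wild type. Gins3 did not fall and stood at 40.5 and 44.8 CPM with DMSO and 47.8 and 46.7 with TSA in wild type cells, and at 24.8 and 30.1 with DMSO and 35.3 and 32.7 with TSA in TKO cells. The TSA libraries were above the DMSO libraries in each genotype, but the log2 fold changes of 0.15 (adjusted p = 0.325) and 0.31 (adjusted p = 0.0508) were not called. In TKO it was called higher under 7 of 16 alternatives, at 0.31 to 0.46 (adjusted p = 0.00914 to 0.0461). Among them were the replicate block (0.31, adjusted p = 0.0351) and leaving out TKO DMSO replicate 2 (0.45, adjusted p = 0.032) or either wild type DMSO library (0.32 and 0.31). In wild type Gins3 was called higher with total counts (0.35, adjusted p = 0.0319). Within a complex built of 1 copy of each subunit, a subunit that fell 2.10-fold in wild type and 2.50-fold in TKO stood beside one that was not lower. Per kilobase, Gins4 was the highest of the 4 and Gins3 the lowest in all 8 libraries.

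Of 9 polymerase and primase genes, 6 fell in each genotype (66.7%, beside 25.9% and 27.9% of all tested genes). In polymerase delta, which copies the lagging strand, the catalytic subunit Pold1 stood at 164 and 141 CPM with DMSO and 87.5 and 76.6 with TSA in wild type cells, and at 144 and 150 with DMSO and 76.2 and 70.4 with TSA in TKO cells. The DMSO libraries were well above the TSA libraries in both genotypes, and the changes were -0.90 ± 0.11 (SE, adjusted p = 8.22e-05) and -1.005 ± 0.11 (SE, adjusted p = 2.45e-05). Pold2, an accessory subunit, stood at 105 and 121 CPM with DMSO and 69.0 and 66.3 with TSA in wild type cells, and at 107 and 116 with DMSO and 86.2 and 76.2 with TSA in TKO cells. It fell by 0.74 in wild type and by 0.45 in TKO, with no overlap; 2.86% of its exon bases overlap Aebp1 on the other strand. Pold3, another accessory subunit, stood at 111 and 117 CPM with DMSO and 89.5 and 84.2 with TSA in wild type cells, and at 83.3 and 77.8 with DMSO and 73.8 and 70.1 with TSA in TKO cells. It fell by 0.39 in wild type (adjusted p = 0.00458), and with total counts that change was -0.19 (adjusted p = 0.0965). In TKO the change of -0.16 was not called (adjusted p = 0.154), though the treatments did not overlap. With the gene length offset the TKO change was -0.24 (adjusted p = 0.0494). The difference between the genotypes for Pold3, 0.23 ± 0.13 (SE), was not called (adjusted p = 0.469).

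Polymerase epsilon copies the leading strand. Its catalytic gene Pole fell by 0.56 in wild type and 0.48 in TKO; its partner Pole2 had a change of -0.32 in wild type (adjusted p = 0.0568) and fell by 0.72 in TKO (adjusted p = 0.000754). In wild type Pole2 was called lower with the replicate block (adjusted p = 0.0444), without DMSO replicate 1 (-0.43) and without TSA replicate 1 (-0.44). The difference between the genotypes for Pole2, -0.40 ± 0.18, was the largest of the 43 and was not called (adjusted p = 0.352).

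The polymerase alpha-primase complex, which lays down the RNA-DNA primers, held genes that moved in opposite directions. Both polymerase subunits fell with TSA and the primase subunits did not. Pola1, the catalytic subunit, fell by 0.63 and 0.75. Pola2, the regulatory subunit, stood at 144 and 123 CPM with DMSO and 100 and 86.0 with TSA in wild type cells, and at 78.1 and 81.7 with DMSO and 56.0 and 49.2 with TSA in TKO cells. It fell by 0.52 and 0.60, and the 4 groups did not overlap, though the lower wild type TSA library lay close to the TKO DMSO libraries. Prim1, the catalytic primase subunit, was named after its values were seen and stood at 120 and 141 CPM with DMSO and 155 and 169 with TSA in wild type cells, and at 133 and 140 with DMSO and 170 and 171 with TSA in TKO cells. It rose by 0.31 ± 0.10 in wild type (adjusted p = 0.0237) and 0.32 ± 0.10 in TKO (adjusted p = 0.018), with no overlap between treatments. Prim2, the other primase subunit, rose by 0.27 in wild type (adjusted p = 0.0207), and its change of 0.20 in TKO was not called (adjusted p = 0.0574). Per kilobase, Prim1 exceeded the lowest polymerase subunit 1.64 and 2.16 times with DMSO and 2.90 and 3.68 times with TSA in wild type cells, and 3.19 and 3.21 times with DMSO and 5.68 and 6.50 times with TSA in TKO cells. The primase calls were lost without single libraries: in wild type Prim1 was at 0.19 (adjusted p = 0.152) without DMSO replicate 1 and 0.24 (adjusted p = 0.164) without TSA replicate 2, and in TKO at 0.28 to 0.35 (adjusted p = 0.0552 to 0.12) without any 1 of the 4 TKO libraries. Prim2 in wild type was at 0.25 to 0.28 (adjusted p = 0.0571 to 0.115) without DMSO replicate 2 or either TSA library. Prim2 in TKO was called higher with total counts (0.35, adjusted p = 0.00445), the upper quartile (0.28, adjusted p = 0.0153), the replicate block (0.20, adjusted p = 0.0449) and without wild type DMSO replicate 1 (0.21, adjusted p = 0.041).

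The sliding clamp Pcna, which tethers polymerases to DNA, stood at 218 and 212 CPM with DMSO and 156 and 141 with TSA in wild type cells, and at 222 and 205 with DMSO and 138 and 138 with TSA in TKO cells. It fell by 0.53 in wild type (adjusted p = 0.000694) and 0.63 in TKO (adjusted p = 0.000154) without overlap. RefSeq lists 2 Pcna pseudogenes that the count table does not list, so reads shared with them could not be separated. Of the 5 genes of the RFC complex, which opens the clamp and loads it, Rfc1 and Rfc5 fell in both genotypes, Rfc1 by 0.28 and 0.48 and Rfc5 by 0.38 and 0.45. Rfc1 in wild type was at -0.20 to -0.30 (adjusted p = 0.0761 to 0.116) without DMSO replicate 2 or either TSA library, at -0.07 (adjusted p = 0.483) with total counts and at -0.13 (adjusted p = 0.252) with the upper quartile. Rfc5 in wild type was at -0.18 (adjusted p = 0.0824) with total counts. Rfc2 had a change of -0.21 in wild type, which was called only with the replicate block (adjusted p = 0.0488). In TKO Rfc2 fell by 0.28. That change was at -0.25 to -0.28 (adjusted p = 0.0574 to 0.0952) without TKO DMSO replicate 2 or either TKO TSA library, and at -0.13 (adjusted p = 0.204) with total counts and -0.20 (adjusted p = 0.0561) with the upper quartile. Rfc3 was not called, at -0.02 and -0.08, with overlapping libraries. Rfc4 was above its DMSO level in both, at 0.27 (adjusted p = 0.0517) and 0.14 (adjusted p = 0.27). In wild type Rfc4 was called higher under 6 alternatives, at 0.27 to 0.47 (adjusted p = 0.00324 to 0.0411). Among them were the replicate block (0.27) and leaving out DMSO replicate 2 (0.39). In TKO it was called with total counts (0.29, adjusted p = 0.0333). In Rfc4, 13.2% of its exon bases overlap Eif4a2 on the other strand.

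Of the 3 genes of RPA, the single-strand binding protein, 1 was called in wild type and 0 in TKO. Of all tested genes, 52.8% and 58.7% were called. Rpa1, its large subunit, spread from 545 to 690 CPM between the wild type DMSO libraries, a range that held both wild type TSA libraries (622 and 621), and its changes were 0.01 and 0.04. Rpa2 fell by 0.25 in wild type (adjusted p = 0.0412), a call lost in 11 of 16 alternatives. It was at -0.16 to -0.31 (adjusted p = 0.0713 to 0.225) without DMSO replicate 1 or either wild type TSA library. With total counts Rpa2 was at -0.05 (adjusted p = 0.681), and with the upper quartile at -0.10 (adjusted p = 0.359). It had a change of -0.18 in TKO that was not called. Rpa3 had changes of -0.26 and -0.28 and was not called. Rpa3 was called lower in wild type without DMSO replicate 1 (-0.46, adjusted p = 0.0182) and in TKO without wild type DMSO replicate 2 (-0.28, adjusted p = 0.0483). Of the genes that join Okazaki fragments, Lig1 was called and Fen1 was not. Lig1, the replicative ligase, stood at 153 and 149 CPM with DMSO and 108 and 106 with TSA in wild type cells, and at 213 and 224 with DMSO and 138 and 115 with TSA in TKO cells. It fell by 0.50 in wild type and 0.79 in TKO with no overlap between treatments, and 3.30% of its exon bases overlap a gene on the other strand. Fen1, the flap nuclease, had changes of -0.08 and 0.13 with overlapping libraries, and with total counts the TKO change was 0.28 (adjusted p = 0.0356).

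In ribonucleotide reductase, which makes deoxyribonucleotides, 1 of the 2 genes was called. Rrm1, the large subunit, fell by 0.51 in wild type (adjusted p = 0.000802) and 0.65 in TKO (adjusted p = 0.000117). Rrm2, the small subunit and the one known for its S-phase periodicity, stood at 182 and 181 CPM with DMSO and 164 and 157 with TSA in wild type cells, and at 165 and 158 with DMSO and 148 and 160 with TSA in TKO cells. Wild type TSA libraries were below the DMSO libraries while TKO libraries overlapped, and neither change was called (-0.17, adjusted p = 0.109, and -0.07, adjusted p = 0.506). Per kilobase, Rrm1 was 1.10 to 1.16 times Rrm2 in the 4 DMSO libraries, and Rrm2 was 1.11 to 1.40 times Rrm1 in the 4 TSA libraries.

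The next question was whether loss of DNA methylation altered the TSA response of these genes. The 2 TSA effects come from separate libraries. Of the 43 genes, 26 were called in both genotypes, each in the same direction (25 lower, and Prim1 higher), 3 in wild type alone, 2 in TKO alone and 12 in neither. Over all tested genes 52.8% were called in wild type and 58.7% in TKO, and the share called in both was not counted. Across the 43 genes the fold changes in wild type and TKO had a Pearson r of 0.922, given as a description since genes are not independent replicates. Among the 25 genes lower in both, 18 had the larger decrease in TKO, and the matching share over all genes was not counted. The test of the difference itself, edgeR's interaction term, called 0 of the 43, with 0 at an unadjusted p under 0.05, beside 1.35% of all tested genes called. DESeq2 also called 0, with 0 at an unadjusted p under 0.05. The estimated differences ran from -0.40 to 0.29 on the log2 scale with standard errors of 0.11 to 0.21. Even the largest, -0.40 ± 0.18 for Pole2, was not called (adjusted p = 0.352), so differences of that size could go undetected here.

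Genotype by itself moved few replication genes. In DMSO, 7 of 43 were called in TKO against wild type, 2 higher and 5 lower, against 20.4% of all tested genes called, 9.63% higher and 10.7% lower. The median was 0.03, and the share called was not above the background. Pola2 fell by 0.74 (adjusted p = 0.00144), with TKO libraries at 78.1 and 81.7 CPM below wild type libraries at 144 and 123. Gins2 fell by 0.69 (adjusted p = 0.00504) and Gins3 by 0.64 (adjusted p = 0.00483), and neither overlapped between genotypes. In the same complex, Gins1 and Gins4 were at 0.27 and 0.12 and were not called, so that the per-length ratio of Gins4 to Gins3 was 9.05 and 11.3 in TKO DMSO against 5.78 and 6.15 in wild type DMSO. Pold3 fell by 0.50 (adjusted p = 0.00351) and Cdt1 by 0.48 (adjusted p = 0.00487). Lig1 rose by 0.53 (adjusted p = 0.00371), from 153 and 149 CPM to 213 and 224. Cdc45, named after its values were seen, rose by 0.37 (adjusted p = 0.0147), from 87.3 and 86.1 to 116 and 108. Without TKO DMSO replicate 1, Cdt1 was at -0.43 (adjusted p = 0.0559), Gins3 at -0.51 (adjusted p = 0.056) and Cdc45 at 0.32 (adjusted p = 0.116). Without TKO DMSO replicate 2, Gins2 was at -0.57 (adjusted p = 0.0668) and Cdc45 at 0.42 (adjusted p = 0.0539). Without wild type DMSO replicate 1, Cdc45 was at 0.36 (adjusted p = 0.0619). Gins1 was called higher with total counts, the upper quartile and the replicate block (0.27 to 0.30). No MCM core gene was called, and their changes ran from 0.02 to 0.18.

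With TSA, TKO against wild type called 5 of 43, 1 higher and 4 lower, against 18.4% of all tested genes called, 10.0% higher and 8.38% lower. The 5 were Cdc45, higher by 0.53, and Gins2, Pola2, Gins3 and Cdt1, which fell by 0.95, 0.82, 0.47 and 0.41. All 5 are among the 7 called in DMSO; the comparisons use different libraries. Lig1 was at 0.24 (adjusted p = 0.116) and Pold3 at -0.27 (adjusted p = 0.0649), neither called. Pold3 was called lower under 4 alternatives (-0.27 to -0.31, adjusted p = 0.035 to 0.0499) and Rrm1 under 6 (-0.27 to -0.31, adjusted p = 0.0243 to 0.0472), the replicate block and leaving out wild type DMSO replicate 1 among both. In TSA, leaving out any 1 of the 4 libraries compared left Cdc45, Gins2 and Pola2 called, with Cdt1 at -0.38 to -0.44 (adjusted p = 0.057 to 0.0741) and Gins3 at -0.42 to -0.53 (adjusted p = 0.0515 to 0.133). Markers of other cell types also differed between the genotypes: the summed level of 8 mesenchymal markers was 233 to 460 CPM in wild type DMSO and 17.7 to 31.7 in TKO DMSO (6 of 8 called lower), and that of 7 trophoblast markers 473 to 731 and 57.9 to 81.9 (4 of 7 called lower). Endoderm markers went the other way, with a summed level of 423 to 465 CPM in wild type DMSO and 655 to 693 in TKO DMSO (4 of 8 called higher, 0 lower). Their part in the genotype differences was not tested.

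**Figure D4:**
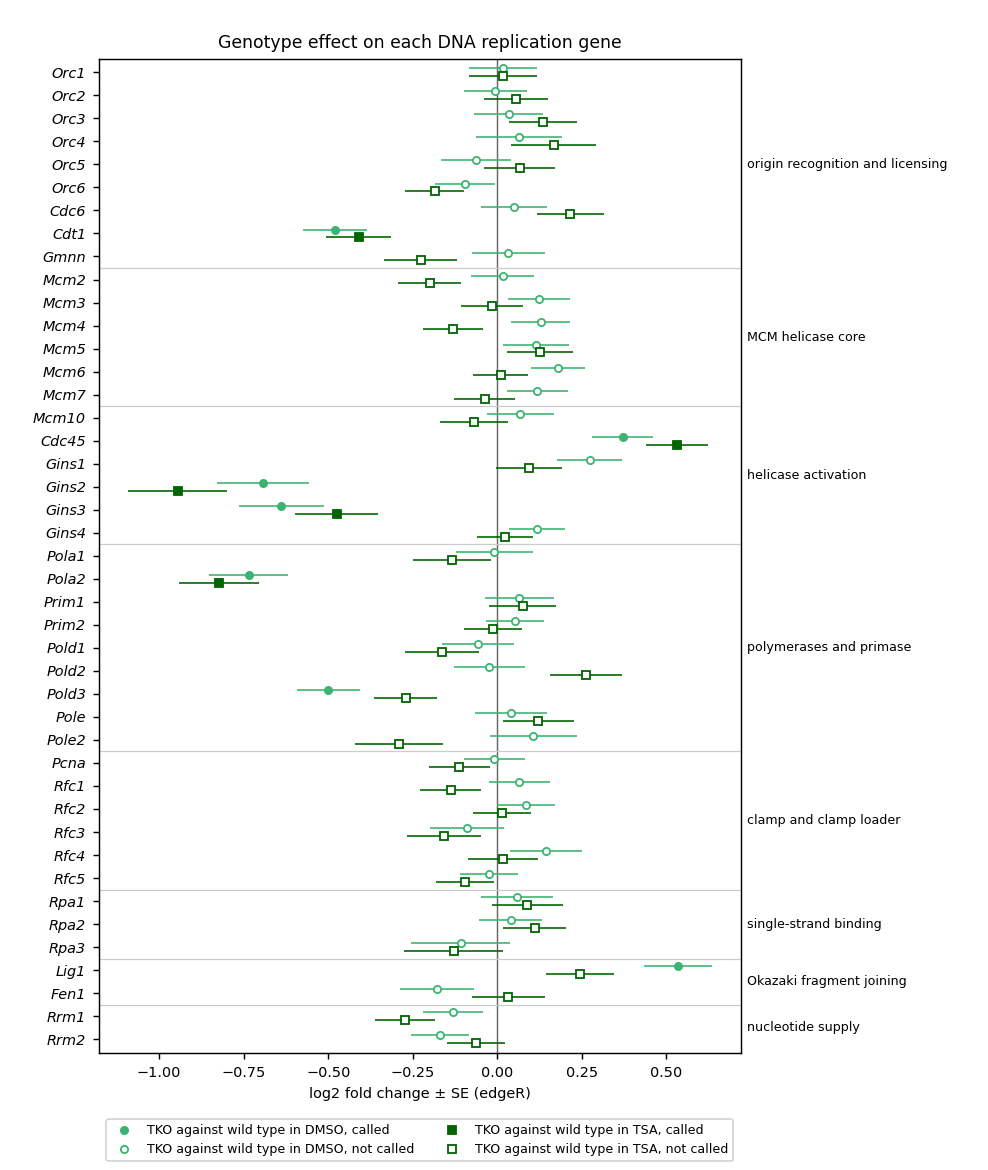
Genotype effect on each replication gene, as edgeR's log2 fold change (TKO over wild type) with its standard error, in DMSO (circles) and in TSA (squares), filled where called. Gins2, Gins3, Pola2 and Cdt1 are filled on the left and Cdc45 on the right under both treatments, while most genes lie near 0.

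The neighbouring genes of the pathway gave the setting for the TSA effect. Of 49 further fork, chromatin assembly and nucleotide genes, 28 fell and 2 rose in wild type, and 26 fell and 6 rose in TKO. Timeless, a fork protection gene, fell by 0.88 in wild type and 0.98 in TKO, Dbf4, the activator of the origin-firing kinase, by 0.84 and 0.82, and Nasp, a histone chaperone, by 0.85 and 0.91. Rrm2b, the p53-inducible small subunit of ribonucleotide reductase, rose by 0.91 in TKO. In wild type the largest increase in the list was 0.59. The interaction called 0 of the 49 genes, so no difference between the genotypes was shown for Rrm2b. Of 24 mitotic genes, 16 fell and 0 rose in wild type, and 18 fell and 1 rose in TKO, among them Plk1, the mitotic kinase (-0.90 and -0.75). Of 30 E2F, RB and G1/S regulators, 14 fell and 5 rose in each genotype. Mybl2, an E2F target and cell cycle activator, fell by 1.51 and 1.61, and Ccnd1, which encodes cyclin D1, by 1.60 and 2.33, while Rb1, the retinoblastoma gene that restrains E2F, rose by 0.97 and 1.15. E2f2, an activating E2F factor, also rose, by 1.05 and 0.37. Of 13 genes for CDK inhibitors and growth arrest, 8 rose and 1 fell in wild type and 9 rose and 1 fell in TKO. Cdkn2c, an inhibitor of the cyclin D kinases, rose by 1.99 and 2.03, and Cdkn1a (p21) by 0.77 and 1.04; Cdkn1b (p27) fell by 1.85 and 1.75. The background is 25.9% and 27.9% of tested genes for the genes that fell and 27.0% and 30.8% for those that rose. Under scaling by total counts the decreases outnumbered the increases in the first 3 of these lists in both genotypes, at 19 and 4, 11 and 2, and 11 and 5 in wild type, and 17 and 10, 11 and 2, and 10 and 6 in TKO. Over all tested genes that scaling gave 2433 decreases and 5812 increases in wild type, and 3267 and 5908 in TKO.

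**Figure D5:**
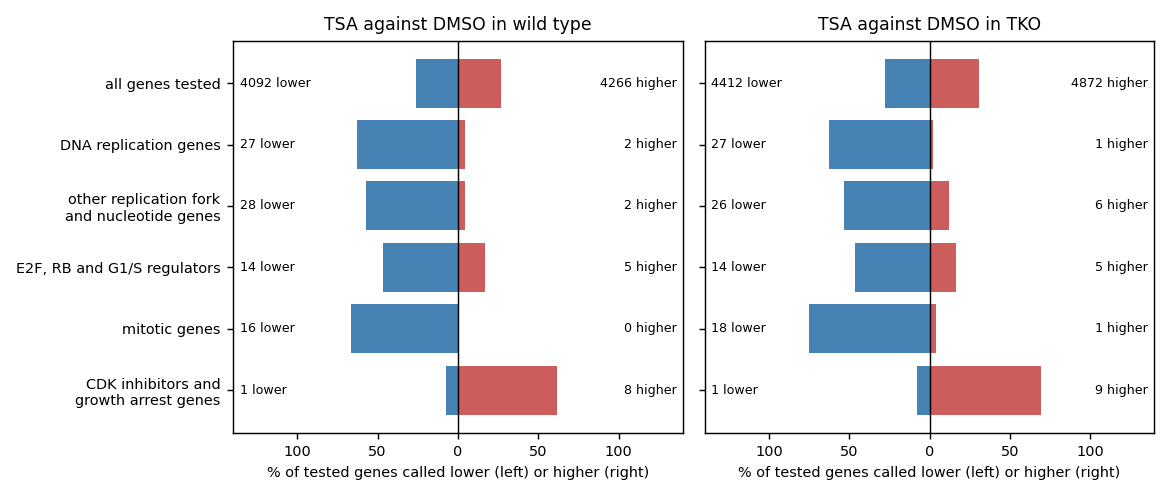
Share of the tested genes of each list called lower (left) or higher (right) with TSA, in wild type and TKO, with the numbers of genes printed at the sides. The replication, fork and mitotic lists extend to the left and the CDK inhibitor list to the right, beside the near-even split of all 15822 genes (4092 lower and 4266 higher in wild type).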

How the data were processed

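RNA-seq of the 8 libraries was analysed; the other 118 samples were not analysed here. Per the labels' protocols, the RNA was depleted of ribosomal RNA and made into directional paired-end libraries. The authors deposited raw read counts per gene, with exon coordinates, strand and summed exon length in bases (other). Per the submitters' processing notes, TopHat2 2.0.13, featureCounts 1.4.5-p1, edgeR 3.22.3 and mm10 were used; the annotation, strand setting and treatment of multi-mapping reads are not given in the sources used here, so genes with overlapping exons are uncertain.

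Groups were taken from the labels. Counts were fitted here with edgeR 4.0.16 in R 4.3.3 (filterByExpr, TMM, quasi-likelihood F-tests, 1 mean per group in a model of all 8 libraries with 4 residual degrees of freedom). Standard errors are the fold change divided by the square root of F. The tests are two-sided, with p-values adjusted over 15822 genes. RPKM used the deposited exon length. The fit was run on counts simulated from its own means and spreads, with changes placed in a small part of the genes. Data with as many changed genes as TSA gave here were not simulated, so the scaling was not tested in that setting. Replicates differed by more than sampling noise (chi-square per degree of freedom 5.28 to 12.2), and log2 CPM correlated at 0.988 to 0.992 within groups. The common biological coefficient of variation was 10.3%. A count of 0 would allow up to 3 counts, or 0.193 to 0.226 CPM, which covers counting error only. 

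Values in every library are printed for the 8 genes with the largest TSA change in each genotype, the 6 with the largest genotype change in DMSO, and Mcm2 to Mcm7, Pcna, Rrm2, Gmnn and Cdt1; up to 5 genes of a context list could be named per comparison. The members, lists and tests were chosen with earlier results of these data known. Alternatives were other scalings, DESeq2 1.42.0, no filter, a replicate block, only the groups compared and leaving out each library; a gene length offset and the background matched on level were chosen after seeing the data.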

Additional observations from a re-analysis of the deposited data

How the results depend on the processing

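Over the 69 called gene results and 1104 alternative values, 1035 kept their direction and their call, 69 lost the call and 0 reversed. Some alternatives left out a library of a group not compared. These hardly move a fold change, so they are a weak check and raise the number kept. Gins4 in wild type, for example, stayed at -0.23 without any single TKO library, beside -0.22 in the main fit. Every alternative kept 21 of the 27 genes lower with TSA in wild type and 24 of 27 in TKO; the increases of Prim1 and Prim2 were not kept by all. For the TSA effects, the genes that lost a call somewhere were Gmnn, Gins4, Prim1, Prim2, Pold3, Rfc1, Rfc5 and Rpa2 in wild type. In TKO they were Cdc45, Gins4, Prim1 and Rfc2. Of the genotype calls, every alternative kept 3 of 7 in DMSO and 3 of 5 in TSA. Those lost somewhere were Cdt1, Cdc45, Gins2 and Gins3 in DMSO, and Cdt1 and Gins3 in TSA. With 1 library left out, the lone library is assumed to vary like the others; the number called ran from 23 to 29 for TSA in wild type, 26 to 30 for TSA in TKO, 4 to 7 for genotype in DMSO, 3 to 7 for genotype in TSA and 0 to 0 for the interaction. The medians then ran from -0.44 to -0.39, -0.53 to -0.40, -0.0333 to 0.0466, -0.0774 to 0.0043 and -0.10 to -0.03.

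Scaling moved the medians: for TSA in wild type to -0.19 with total counts and -0.24 with the upper quartile, for TSA in TKO to -0.33 and -0.40, and for the interaction to -0.13 and -0.14, while the medians of all genes moved to 0.22 and 0.16 in wild type and 0.19 and 0.11 in TKO. The gene length offset, chosen after seeing the data, gave -0.46 in wild type. These shifts follow the scaling; the cause of the others was not tested. Over all genes the interaction called 213, against 401 with DESeq2, 488 without the filter and 10 to 410 with 1 library left out; among the 43 genes it called 0 throughout, with up to 5 at an unadjusted p under 0.05.

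The replicate numbers are shared across groups, but no label ties equal numbers together; same-numbered libraries deviated with correlations of 0.07 to 0.32 over pairs of groups. With the replicate block, 32, 30, 8, 7 and 0 of the 43 genes were called in the 5 comparisons in that order. Over all tested genes the numbers were 9256, 10039, 4217, 4097 and 633. Standard errors of the TSA effects ran from 0.08 to 0.15 over the 43 genes, and those of Gins2, Rpa3 and Pole2 from 0.13 to 0.15; the part of depth in these was not tested.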
